A study of Mus musculus with 104 samples.

Results

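The libraries described here came from primary mouse hepatocytes (PMH), liver cells put into culture directly from the animal, that were transfected with the Ttr siRNA D5 at 50 nM. They were chosen by their treatment label alone and are 4 of the 104 libraries of the series. The series held 8 mock libraries and 4 for each of the siRNAs D1 to D6 at each of the doses 0.1, 1, 10 and 50 nM. All cells were handled with the lipid reagent Lipofectamine RNAiMax, and RNA was taken after 24 h. D5 is directed against transthyretin (Ttr) and carries guanine on a glycol nucleic acid (GNA) backbone at position 6 of its guide strand. D4 is the parent siRNA of the same sequence without GNA, D6 carries GNA-isoguanine at the same position, and D2 is a GNA-C siRNA directed against Hao1. The strain, age and sex of the mice are not given in the sources used here. Nothing states that the libraries of a group came from separate cultures or animals, so p-values measure only the spread between these libraries, which may be technical.

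In RNA interference the guide strand of an siRNA is loaded into Argonaute 2 (Ago2), which cuts an mRNA that pairs with the guide along most of its length. Pairing of the guide seed, positions 2 to 8, with a 3′-UTR is enough for weaker repression of the kind that microRNAs exert. GNA has an acyclic backbone, and a single GNA nucleotide in the seed weakens seed pairing. Ttr is made by hepatocytes and carries thyroid hormone and, bound to retinol-binding protein, vitamin A in plasma.

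The question addressed was which transcripts differed between cells given D5 at 50 nM and mock cells, up or down, besides Ttr itself. Several genes that were lower shared a long unbroken stretch with the 23-base Ttr site. The sites of the 10 genes (Ttr apart) whose longest stretch was at least 13 bases, lay in a 3′-UTR and paired within guide positions 5 to 20 are shown because they hold both genes that were lower and genes that were not. Capitals mark the bases shared with the Ttr site, the first 5 genes were called lower and the last 5 were not called.
Zfp850: tggcctctACAGTGTTCTTGCTttcatcaa
Otud4: gctcctttCAGTGTTCTTGCTgttcaagtt
Upf3a: ccttctagAGTGTTCTTGCTCatctgggat
Cnot6: tgtaatttCAGTGTTCTTGCTgataagtac
Kpna6: ccaaacaaAGTGTTCTTGCTCTgacccata
Rab34: gtgaggggCAGTGTTCTTGCTgcttttgct
Gorasp1: cactggcaAGTGTTCTTGCTCacttgaggg
Phf21a: ccctctcCAGTGTTCTTGCTCTtagcccag
Pdpk1: cagctgtgAGTGTTCTTGCTCcacacctca
Rxylt1: tcctaactACAGTGTTCTTGCTtcacacca

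In GRCm39 the stretch of Zfp850 lies at chr7:27686632-27686645 on the minus strand and that of Otud4 at chr8:80403186-80403198 on the plus strand. The stretch of Upf3a lies at chr8:13848647-13848659 (plus), that of Cnot6 at chr11:49563341-49563353 (minus) and that of Kpna6 at chr4:129541281-129541294 (minus). Counted from the 5′ end of the guide, the stretches of Otud4 and Cnot6 face positions 7 to 19, that of Zfp850 positions 7 to 20, that of Upf3a positions 6 to 18 and that of Kpna6 positions 5 to 18. None of the 5 stretches reaches the first seed positions, and those of Zfp850, Otud4 and Cnot6 begin just beyond the GNA nucleotide. The transcript windows were read from GENCODE M39.

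Counts per library lay between 3659588 and 4783543 for D5 at 50 nM and between 3409963 and 5308584 for mock. By exact permutation tests over libraries (two-sided, smallest possible p = 0.00202), the groups did not differ detectably in total count (p = 0.4), in the share of spike-in RNA (0.731% ± 0.231 against 0.582% ± 0.106, SD, n = 4 and 8, p = 0.186) or in the share of mitochondrially encoded RNA (p = 0.929). Hepatocyte markers summed to 28400 to 30300 CPM, the counts scaled to a normalized library size of 1000000, in D5 at 50 nM and to 24620 to 30560 CPM in mock. Of the markers of other liver cells, 10 of 16 for Kupffer cells and macrophages and 9 of 15 for lymphocytes and neutrophils were at 0. Fewer were at 0 for endothelial cells (3 of 15) and for stellate cells and fibroblasts (2 of 15). The summed levels in D5 at 50 nM were 213 to 259 CPM for Kupffer cells and macrophages, 348 to 425 CPM for stellate cells and fibroblasts (301 to 377 CPM in mock) and 8.77 to 21.7 CPM for endothelial cells.

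Ttr (ENSMUSG00000061808, on chromosome 18) had 3, 7, 5 and 2 counts in the 4 D5 libraries, or 0.823, 1.53, 1.08 and 0.515 CPM. In mock it lay between 538 and 715 CPM with a median of 674 CPM. The groups were far apart, and the summed level was 0.152% of mock (exact 95% interval 0.0884 to 0.243%, counting error only). The log2 fold change was −9.30. Its SE from the test, 0.14, does not capture the counting error at so few counts, for which the interval is the guide. At 0.1 nM the mean level of Ttr was 20 CPM with a range of 1.16 to 73.0 CPM over the 4 libraries, and at 1 and 10 nM it was 1.88 and 2.67 CPM. D4 and D6 at 50 nM left 1.2 ± 0.658 and 1.19 ± 0.418 CPM (SD, n = 4), ranges that overlap that of D5. Ttr did not pass the filter on low counts in the comparisons with D4 and D6, which therefore give no test of its remaining level. The other transcripts named by the study moved little: F12 had a log2 fold change of 0.19 (adjusted p = 0.123) and Gapdh one of −0.07 (adjusted p = 0.465). Hao1, the glycolate oxidase gene, had 29.6, 18.6, 21.4 and 29.9 CPM in the D5 libraries against 27.7 to 38.7 CPM in mock, so that the groups overlapped. Its log2 fold change of −0.44 (SE 0.12) passed the test (adjusted p = 0.0192), but not without D5 replicate 2, without D5 replicate 3 or with sequencing run 1 alone.

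Across the transcriptome, 513 of 11194 genes tested (4.58%) were higher and 220 (1.97%) were lower in D5 at 50 nM than in mock at an adjusted p under 0.05 in edgeR's quasi-likelihood test. Most changes were small. The median log2 fold change was 0.33 among the higher genes and −0.43 among the lower genes, and 16 higher and 12 lower genes changed by more than 1 on this scale. All 4 D5 libraries lay above all 8 mock libraries for 268 of the 513 higher genes, and all 4 lay below for 105 of the 220 lower genes. Over all 11194 genes tested, called or not, all 4 lay above all 8 for 318 genes and below for 158. The counts depended on single libraries: without D5 replicate 3, 284 genes were higher and 93 lower, and without D5 replicate 2, 296 were higher.

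**Figure D1:**
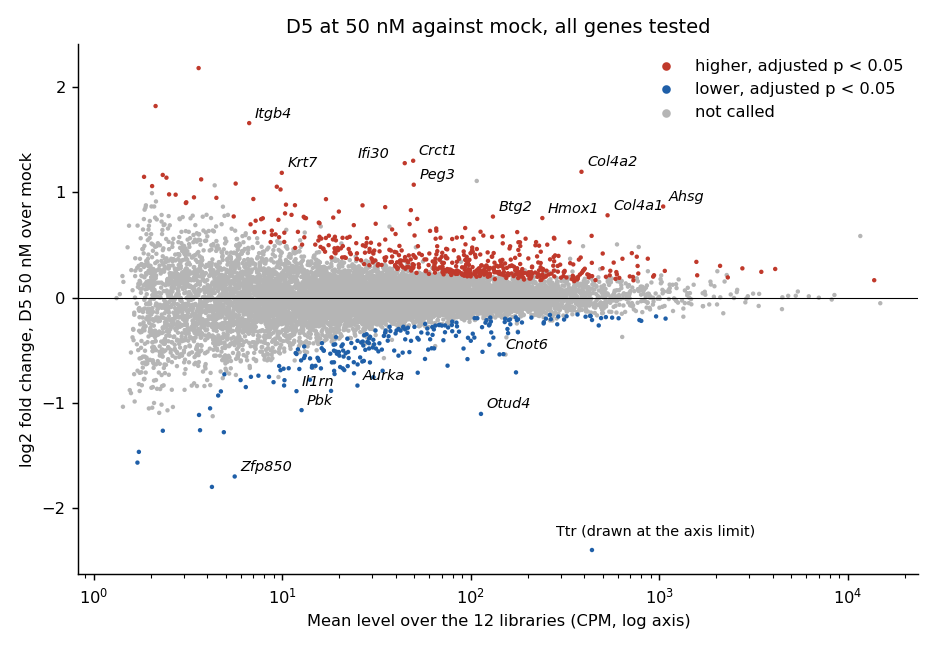
Log2 fold change of D5 at 50 nM over mock (vertical) against the mean level over the 12 libraries in CPM (horizontal, log axis), each point 1 gene tested, red higher and blue lower at an adjusted p under 0.05. Higher genes outnumber lower genes (513 against 220) and Ttr, at −9.30, is drawn at the axis limit.

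After Ttr, the lower genes with a mean of at least 5 CPM and no overlap between groups were led by Zfp850 and Otud4. Zfp850 (ENSMUSG00000096916), a zinc finger protein gene, had 1.37, 2.19, 2.16 and 3.09 CPM in the D5 libraries against 6.25 to 8.24 CPM in mock (median 7.31 CPM). Every D5 library was below every mock library, at a log2 fold change of −1.70 (SE 0.24, adjusted p = 8.02e-06). Otud4 (ENSMUSG00000036990), which encodes a deubiquitinase, had 69.4, 70.5, 68.6 and 46.3 CPM against 124 to 148 CPM (median 140 CPM). Again the groups did not overlap, and the level in D5 was 46.2% of mock (log2 fold change −1.11, SE 0.08, adjusted p = 4.27e-11). The rest of the lower genes named by this rule were mostly genes of mitosis and DNA replication, with log2 fold changes between −0.72 and −1.07: Pbk, Kif2c, Cenph, Aurka, Sgo1, Cdc6, Ube2c, Fbxo5, Ccnb1 and Cdc20. Of the others, Il1rn, the interleukin-1 receptor antagonist, was at 5.15 to 8.77 CPM against 10.7 to 17.6 CPM in mock (log2 fold change −0.89), and Plscr2, a phospholipid scramblase gene, changed by −0.75. Cenph and Fbxo5 were not called without D5 replicate 3, and Plscr2 was not called without D5 replicate 2.

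Among the higher genes with a mean of at least 5 CPM and no overlap, the largest log2 fold changes were those of Itgb4, Crct1, Ifi30, Col4a2 and Krt7. Itgb4 (ENSMUSG00000020758), the integrin β4 subunit that binds laminin, had 17.0, 15.5, 7.79 and 8.24 CPM in D5 against 2.31 to 5.54 CPM in mock, without overlap (log2 fold change 1.66, SE 0.23). Col4a2 (ENSMUSG00000031503), a type IV collagen chain of basement membranes, had 584, 683, 646 and 560 CPM against 235 to 285 CPM, more than any mock library in each case (1.20, SE 0.05, adjusted p = 3.66e-18). Its partner chain Col4a1 had 739, 801, 735 and 671 CPM against 382 to 489 CPM (0.78, SE 0.06). Col4a1 and Col4a2 overlap at their annotated starts on opposite strands, and whether the counting used strand is not stated in the sources used here. A further type IV collagen chain, Col4a5, had 19.3 to 30.9 CPM against 9.26 to 17.4 CPM (0.94, SE 0.14). Krt7, a keratin of bile duct epithelium, had 16.7, 11.6, 17.1 and 18.3 CPM against 4.15 to 9.05 CPM (1.19, SE 0.18). Ifi30 (ENSMUSG00000031838), a lysosomal thiol reductase inducible by interferon γ, had 61.1, 75.7, 91.1 and 64.6 CPM against 25.1 to 37.1 CPM (1.28, SE 0.10, adjusted p = 4.75e-11). Its D5 libraries all lay far above the mock range.

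The other higher genes named by the same rule were of mixed roles. Crct1 (1.30, SE 0.29) was spread most widely, at 52.4 to 144 CPM in D5 against 22.8 to 46.9 CPM, and was not called without D5 replicate 2. The protease inhibitor Timp2 changed by 1.08, the imprinted zinc finger gene Peg3 by 1.07, the transcription factor subunit Taf7 by 1.05, the chemokine Ccl7 by 1.03 and the membrane protease St14 by 0.94 on the log2 scale. Cav1, the caveolae protein, and Zfp469 changed by 0.88, as did Marcks, an actin-regulating kinase substrate. Ahsg, which encodes the plasma protein fetuin-A, was the most abundant of them, with 1358, 1571, 1564 and 1503 CPM against 680 to 991 CPM (0.87, SE 0.09). Genes with a mean under 5 CPM were outside this rule, and 3 of them, named after their values were seen, had larger changes than most: Lrp2 (2.18), Cldn6 (1.82) and Slc2a9 (−1.80).

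Read against the Ttr site, the share of lower genes was highest among genes with a long match, a class chosen after values were seen and given without a test. Of 6690 tested genes whose longest unbroken stretch shared with the site was 8 bases or shorter, 114 (1.70%) were lower. The share was 1.82% at 9 bases, 2.91% at 10, 3.31% at 11 and 2.33% at 12 bases. Genes at these lengths were also called higher: 120 of 2861 at 9 bases, 52 of 1169 at 10, 18 of 332 at 11 and 2 of 86 at 12. Of the 46 genes with 13 bases or more, 0.411% of the genes tested, 7 were lower (15.2%) and 0 were higher, against a background of 1.97% lower. Without Ttr, 6 of 45 were lower and 0 higher. At an unadjusted p under 0.05, 8 of the 45 were lower and 4 higher. DESeq2 called 6 lower and 0 higher. Where the longest match was placed in a 3′-UTR, 5 of 22 genes were lower. Of the 23 others, 1 was lower, Cpsf3 (−0.24), whose match is in a non-coding transcript. For some of these 23, Alg6 among them, the part of the transcript was not determined. Cpsf3 was not called without D5 replicate 1, 3 or 4 or without mock replicate 2, 3, 4 or 6. Of the 10 genes whose sites are printed above, 5 were lower. The window of guide positions 5 to 20 was set after values were seen and is the span of these 5 stretches, so the share follows from the choice. Of the 12 other genes with a 3′-UTR stretch, 0 were lower, which follows from the same choice, and 0 were higher. Of 12 genes (Ttr apart) whose 3′-UTR stretch began beyond guide position 6, 3 were lower, and of 10 whose stretch covered this position, 2 were lower. On the passenger side, 27 genes shared 13 bases or more, of which 2 were higher and 1 lower.

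The genes with printed sites differed widely from each other. Cnot6, a subunit of the CCR4-NOT deadenylase, had 104, 110, 101 and 121 CPM in D5 against 145 to 166 CPM in mock (−0.54, SE 0.06). Upf3a, a factor of nonsense-mediated decay, had 17.3, 21.2, 19.1 and 22.9 CPM against 27.0 to 34.0 CPM (−0.60, SE 0.11). Kpna6, an importin α, had 101 to 114 CPM against 129 to 156 CPM (−0.38, SE 0.06). In all of these the D5 libraries were below every mock library. Rab34 and Rxylt1 share as long a stretch at the same positions as Otud4 and Zfp850, but Rab34 had a log2 fold change of −0.34 (SE 0.20, adjusted p = 0.377) and Rxylt1 one of 0.07 (SE 0.08, adjusted p = 0.746). Phf21a, with 15 bases, stood at −0.03, Gorasp1 at −0.10 and Pdpk1 at 0.07, and none passed the test. Alg6, with the longest stretch after Ttr (16 bases), stood at −0.11 (SE 0.17). Whether its stretch lies in a 3′-UTR was not determined.

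**Figure D2:**
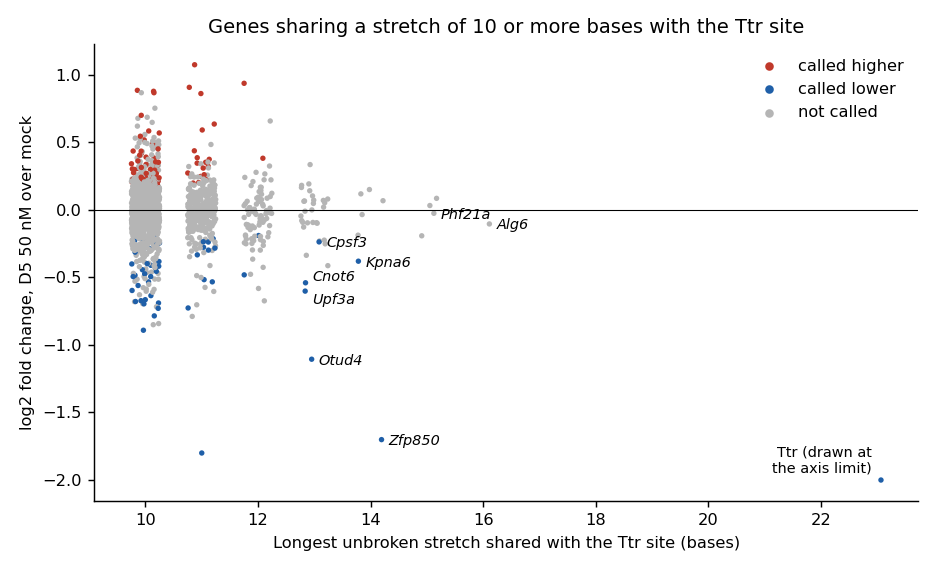
Log2 fold change of D5 at 50 nM over mock (vertical) against the longest unbroken stretch a gene shares with the Ttr site (horizontal, bases, points spread sideways), for genes sharing 10 bases or more, blue called lower and red called higher. Zfp850 (−1.70) and Otud4 (−1.11) lie below all other genes with 13 bases or more except Ttr, while Phf21a and Alg6 with 15 and 16 bases lie near 0.

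Matches to the seed were read in the same way, without a test. The motifs searched in the sense strand of 3′-UTRs were CTCTATAA (positions 2 to 8 with an A), CTCTATA and TCTATAA, each gene being placed by its strongest match, since the first holds the others. CTCTATAA was present in 329 of 10621 genes with a 3′-UTR (3.10%), of which 9 (2.74%) were lower, 7 were higher, and the median log2 fold change was −0.01. The 9 include Ttr and Otud4, which also hold a long stretch, and of the 326 genes whose longest stretch was under 13 bases 7 (2.15%) were lower and 7 higher. Of the 713 genes with CTCTATA, 11 (1.54%) were lower, of the 1112 with TCTATAA 23 (2.07%), and of the 8467 with none 168 (1.98%). Genes with the passenger seed match ACACTGT (2518 genes) had 43 lower (1.71%). The CTCTATAA genes with the largest decreases were, besides Ttr and Otud4, Spata6 (−1.26), Bcl2l2 (−0.48), the fatty acid elongase Elovl2 (−0.47) and Prkaa1 (−0.40), a catalytic subunit of the AMP-activated kinase. Spata6 was not called without D5 replicate 2, and Elovl2 was not called without D5 replicate 1, 2 or 3 or mock replicate 7, with either sequencing run alone, with no filter on low counts or with all libraries in 1 fit. The sites of Otud4 and of Bcl2l2, a relative of the apoptosis inhibitor Bcl2, are shown with CTCTATAA in capitals, because Otud4 holds both kinds of match and Bcl2l2 differed most between the siRNAs.
Otud4 seed site: ctgataggcttCTCTATAAaagagtgtttt
Bcl2l2 seed site: aaaagaaaaagCTCTATAAatataaatata

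The Otud4 seed site lies at chr8:80401538-80401545, upstream of its long stretch in the same 3′-UTR, and that of Bcl2l2 at chr14:55125554-55125561, both on the plus strand. Bcl2l2 had 53.2, 50.6, 43.3 and 48.9 CPM in D5 against 61.2 to 74.2 CPM in mock. In D4 at 50 nM it was at 21.2 ± 2.99 CPM and in D6 at 27.2 ± 3.04 CPM (SD, n = 4), below every D5 library.

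Of the gene lists examined, the cell cycle list stood out downward. Of 47 members tested, 29 were lower and 0 higher, against 1.97% lower and 4.58% higher over all genes, and the median log2 fold change was −0.48 against −0.00 for all genes. At an unadjusted p under 0.05, 40 members were lower and 1 was higher, and DESeq2 called 30 lower and 0 higher. Aurka, a kinase of the mitotic spindle, had 20.6, 16.6, 12.6 and 16.2 CPM in D5 against 22.9 to 35.0 CPM in mock (−0.84, SE 0.13). Cdc6, which licenses replication origins, had 11.2, 11.6, 6.93 and 7.98 CPM against 12.1 to 18.6 CPM (−0.78). Ccnb1, mitotic cyclin B1, had 9.09 to 15.8 CPM against 17.4 to 30.3 CPM (−0.73), and Cdc20, an activator of the anaphase-promoting complex, had 13.9 to 21.9 CPM against 22.2 to 34.3 CPM (−0.72). In all of these the groups did not overlap, and replicate 3 was lowest for Aurka, Cdc6 and Ccnb1. The S-phase cyclins Ccna2 (−0.71) and Ccne1 (−0.67), thymidine kinase Tk1 (−0.68) and the replication helicase subunits Mcm2, Mcm4 and Mcm6 (−0.26 to −0.33) were also lower. The members summed to 2091 to 2571 CPM in D5 against 2621 to 3182 CPM in mock. Without D5 replicate 3, the count fell to 17 lower. In bulk RNA, fewer cells of a type and less RNA per cell cannot be told apart.

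**Figure D3:**
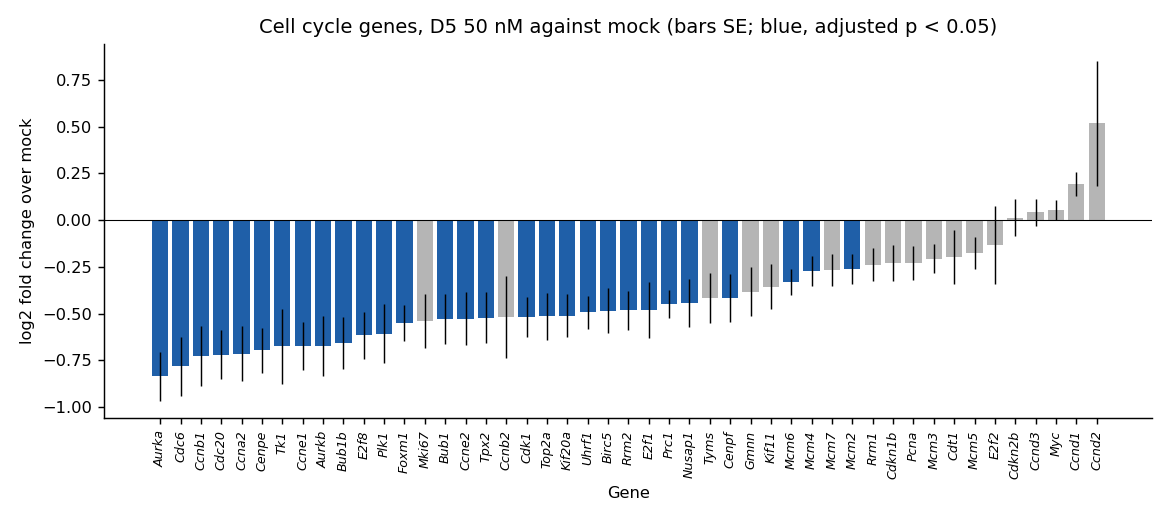
Log2 fold change of D5 at 50 nM over mock for each cell cycle gene tested (vertical), bars with SE, blue at an adjusted p under 0.05. Of 47 genes, 42 lie below 0 and 29 are called lower, from Aurka at −0.84 to Mcm2 at −0.26.

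Among lists whose members were higher, the list of cytoskeleton, matrix and adhesion genes had 16 of 56 members higher and 0 lower. This stands against 4.58% higher and 1.97% lower over all genes, and the median of the list was 0.07. Its summed level overlapped mock, at 50520 to 57360 CPM against 50680 to 56570 CPM. At an unadjusted p under 0.05, 22 were higher and 3 lower, and DESeq2 called 15 higher and 0 lower. Besides the collagen chains and Krt7, the members higher included Epcam (1.14), Tgfb2 (0.74), E-cadherin Cdh1 (0.56, SE 0.06), the fibronectin receptor subunit Itga5 (0.56, SE 0.08), the laminin chain Lamc1 (0.38) and the actin cross-linkers Actn1 (0.23) and Flna (0.21). Epcam was not called without D5 replicate 2, 3 or 4 or mock replicate 5. Vim, the mesenchymal intermediate filament gene, had −0.18 (adjusted p = 0.404). Bile duct cell (cholangiocyte) markers moved with this list: 4 of 9 tested (Krt7, Krt19 and Epcam among them) were higher and 0 lower, 8 of 9 had a log2 fold change above 0, none of the 13 was at 0, and their summed level was 616 to 746 CPM in D5 against 604 to 641 CPM in mock. The number higher was 2 without D5 replicate 2 or 4. Their part in the result was not tested. Krt7, Krt19 and Epcam stand in both lists.

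The lysosome and endosome list had 14 of 53 members higher (4.58% over all genes) and 0 lower (1.97%), a median of 0.17, and 48 members above 0. At an unadjusted p under 0.05, 27 were higher and 0 lower, and DESeq2 called 15 higher and 0 lower. Grn, which encodes the lysosomal protein progranulin, had 832, 919, 995 and 856 CPM in D5 against 578 to 766 CPM in mock (0.39, SE 0.06). The protease Ctsd had 647, 636, 705 and 664 CPM against 430 to 565 CPM (0.33, SE 0.06), and the asparaginyl endopeptidase Lgmn 153 to 178 CPM against 89.6 to 135 CPM (0.58, SE 0.09). None of these overlapped mock, and neither did the summed level of the list, 14100 to 15710 CPM against 11650 to 13580 CPM. A mean above mock was not particular to D5 at 50 nM. The mean summed level was 14100, 13980, 14410 and 14850 CPM at 0.1, 1, 10 and 50 nM of D5, against 12920 CPM in mock. At 50 nM it was 14320 CPM in D4, 13810 CPM in D6 and 14010 CPM in D2. Other members higher included Ctsl, Ctsb, Ctsz, Psap, Npc2, Tpp1, Neu1, Idua, Atp6ap1 and Atp6v1b2, with log2 fold changes of 0.20 to 0.57. Idua was not called without D5 replicate 1, 3 or 4 or without mock replicate 3, 4, 6, 7 or 8. The count was 6 without D5 replicate 3 and 9 with sequencing run 1 alone.

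Calls in the lists of plasma proteins stand beside 4.58% higher and 1.97% lower over all genes. Of 59 proteins secreted into plasma by hepatocytes, 14 were higher, 1, Ttr, was lower and 44 were not called, with a median of 0.11. Besides Ahsg these included Serpina6, the corticosteroid-binding globulin (17.3, 27.8, 24.5 and 27.5 CPM against 13.5 to 19.7 CPM, 0.58), Lcat (0.42) and Alb (0.17), which stood at 14450 to 15320 CPM against 12450 to 14350 CPM. The call of Alb was lost without D5 replicate 2, 3 or 4 and without mock replicate 3, 4 or 7. The plasma protein count rested on many libraries: it was 5, 6 and 9 without D5 replicates 3, 2 and 4, 9, 8 and 9 without mock replicates 3, 4 and 7, and 7 and 8 with sequencing run 1 or 2 alone. Of 29 coagulation and fibrinolysis genes, 7 were higher and 0 lower, with a median of 0.16. Fgg, the fibrinogen γ chain, had 242, 277, 298 and 319 CPM against 176 to 224 CPM (0.44, SE 0.07), and F3, tissue factor, 81.2 to 92.2 CPM against 61.1 to 78.2 CPM (0.38). This count was 4 without D5 replicate 2, without D5 replicate 3 or without mock replicate 4. Of 23 complement genes, 0 were called, with 3 higher and 0 lower at an unadjusted p under 0.05 and 0 called by DESeq2. Of 26 acute-phase genes, 2 were higher (Fgg and Serpina3n) and 2 lower (Il1rn and Steap4). The number higher was 4 without mock replicate 1.

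Of 32 p53 targets, 7 were higher and 0 lower (median 0.10), against 4.58% higher and 1.97% lower over all genes. Btg2, an antiproliferative gene, had 183, 193, 162 and 185 CPM against 83.0 to 113 CPM (0.77, SE 0.07), and the kinase Plk2 had 251 to 306 CPM against 172 to 223 CPM (0.53, SE 0.06). Neither overlapped mock. Cdkn1a, the p21 inhibitor of cyclin-dependent kinases, changed by 0.33 (SE 0.05, adjusted p = 4.66e-05), as did the death receptor Tnfrsf10b (0.33), while Mdm2, the ubiquitin ligase of p53, had −0.08 (adjusted p = 0.459). With sequencing run 1 alone, 3 were higher. Of 23 NF-κB and cytokine genes, 6 were higher and 1 was lower (Cxcl1, −0.38), with a median of 0.14. The monocyte chemokine Ccl2 had 292, 361, 408 and 350 CPM against 220 to 250 CPM (0.56, SE 0.06). Csf1, the macrophage growth factor, had 135 to 170 CPM against 79.6 to 114 CPM (0.59, SE 0.07), and both were above every mock library. Ccl7 (1.03), Cxcl9 (0.69) and Cxcl16 (0.47) were also higher.

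The interferon-stimulated list had no member called of 38 tested, with 1 higher and 1 lower at an unadjusted p under 0.05 and 1 higher and 0 lower in DESeq2, and a median of −0.05. Isg15 had a log2 fold change of −0.13 (SE 0.28), Ifit1 of 0.17 (SE 0.25) and Irf7 of −0.38 (SE 0.19). Rsad2, an antiviral enzyme gene, had the highest value, 1.11 (SE 0.32, adjusted p = 0.0704). Of 14 nucleic acid sensors and adaptors, 1 was higher and 0 lower, against 4.58% and 1.97% over all genes. The 1 called was Unc93b1 (0.59), which carries Toll-like receptors to endosomes. It was not called without D5 replicate 2.

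In the RNA interference machinery, 4 of 17 genes were higher (4.58% over all genes) and 1 lower (1.97%), with a median of −0.08. Tnrc6a, a GW182 protein that binds Argonaute, had 200, 209, 222 and 166 CPM against 125 to 154 CPM (0.49, SE 0.06) and did not overlap mock. Ago2 (0.22), Dicer1 (0.22) and Ago1 (0.21) changed less, and Ago2 and Dicer1 overlapped mock. Ago2 was not called without D5 replicate 3, and Dicer1 was not called without any 1 of the D5 libraries or of mock replicates 2, 3, 5, 6, 7 and 8. Eri1, an exonuclease that degrades small RNAs, was lower (−0.28), with all D5 libraries below mock, but was not called without D5 replicate 2 or 3. The number higher was 1 without D5 replicate 3, and 2 without D5 replicate 1 or 2, without mock replicate 2, 3, 6, 7 or 8, with no filter on low counts, or with either sequencing run alone.

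Among metabolic lists, 10 of 72 cytochrome P450 and phase II genes were higher and 2 lower, against 4.58% and 1.97% over all genes. Ces2a, a carboxylesterase, had 15.6 to 18.1 CPM against 8.93 to 15.0 CPM (0.57), the glucuronosyltransferase Ugt2b36 changed by 0.50, Cyp2c29 by 0.35 and Cyp2d26 by 0.38, and Sult1d1 by −0.50. Ugt2b36 was not called without D5 replicate 2. The number higher was 4, 6 and 5 without D5 replicates 2, 3 and 4, 6 without mock replicate 4 and 3 with run 1 alone, and the number lower was 0 without D5 replicate 3 or mock replicate 3, 4, 5 or 8. Of 26 genes of cholesterol synthesis and uptake, 0 were called by edgeR or DESeq2, although 24 lay above 0 and 10 were higher and 0 lower at an unadjusted p under 0.05. Of 30 glucose metabolism genes, 3 were higher, Pfkfb3 (0.54), the glucose transporter Slc2a1 (0.31) and Aldoa (0.19), and 1 was lower, Ldha (−0.21), a call that was lost without D5 replicate 1, 2 or 3. Aldoa was not called without D5 replicate 3. Rbp4, the retinol-binding partner of Ttr, had a log2 fold change of 0.10 (adjusted p = 0.332). Calls in the stress lists stand beside 4.58% higher and 1.97% lower over all genes. Of 30 unfolded protein response genes, 2 were higher (Wfs1, 0.46, and Os9, 0.23), 1 without D5 replicate 2 or 3. Of 28 targets of the integrated stress response, 3 were higher and 1 was lower. That number higher was 0 and 1 without D5 replicates 2 and 3. Hmox1, heme oxygenase 1, had 264, 372, 412 and 266 CPM against 127 to 232 CPM (0.76, SE 0.17), and was not called without D5 replicate 2 or 3. Proteasome genes gave 0 calls of 39 (0 at an unadjusted p under 0.05 and 0 by DESeq2) and mitochondrial ribosomal proteins 0 of 77 (8 lower and 0 higher at an unadjusted p under 0.05, 0 by DESeq2). Cytosolic ribosomal proteins had 3 of 85 lower and 0 higher, but 83 lay below 0, with a median of −0.11. Their number lower ranged from 0 without D5 replicate 1 or 2 to 19 without D5 replicate 4, and was 13 and 6 without mock replicates 1 and 2 and 5 in DESeq2.

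**Figure D4:**
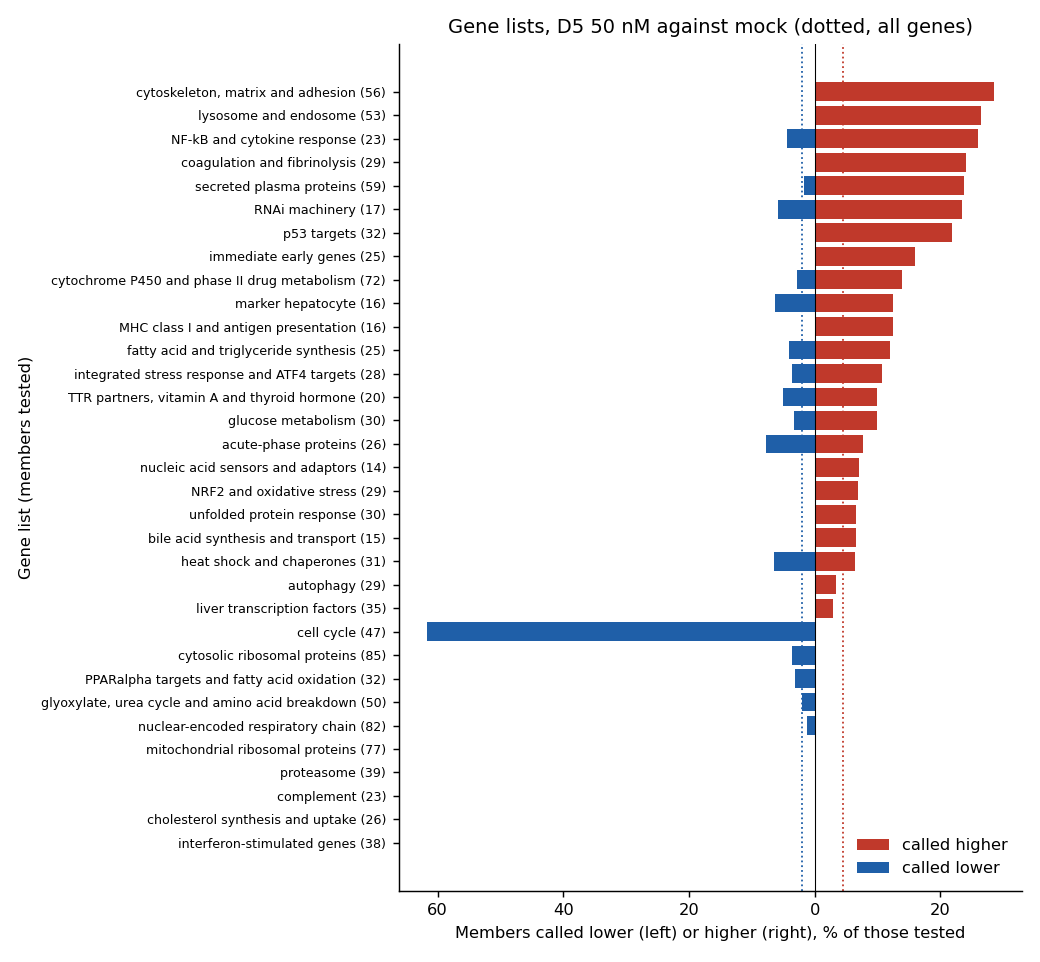
Share of the tested members of each gene list (vertical, number tested in parentheses) called lower (left, blue) and higher (right, red) in D5 at 50 nM against mock, in percent, with dotted lines at the shares over all genes (1.97% and 4.58%). The cell cycle list has 29 of 47 members lower, and the matrix and lysosome lists have 16 of 56 and 14 of 53 higher.

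Against the parent D4 at 50 nM, 1526 of 11064 genes tested (13.8%) were higher in D5 and 1003 (9.07%) lower, which asks how the GNA nucleotide changed the response to the same sequence. Lox, the collagen cross-linking enzyme, was at 35.9 to 72.3 CPM in D5 and at 2.71 ± 0.87 CPM in D4 (SD, n = 4; log2 difference 4.16, SE 0.28). Its own value against mock was 0.67 (adjusted p = 0.0848). Ugt2b1 (3.73), the growth factor binding protein Igfbp7 (3.02) and the kinase Uhmk1 (2.37) also differed. Uhmk1 was at 279 to 317 CPM in D5, which overlaps mock at 257 to 290 CPM, and at 55.6 to 58.7 CPM in D4. In the other direction, Itgb4 reached 77.0 ± 8.13 CPM in D4, above every D5 library (−2.67, SE 0.18). Rcan2 (−2.42), Steap4 (−2.26) and Cnksr1 (−2.22) were lower in D5 too. Cell cycle genes were 13 higher and 6 lower of 47 in D5 than in D4, with a median of 0.27.

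Of the 45 genes other than Ttr with a stretch of 13 bases or more, 10 were higher in D5 than in D4, 4 were lower and 31 were not called. Over all genes tested, 13.8% were higher and 9.07% lower, so the share lower among the 45 (8.89%) was close to that over all genes. Clic1 (2.36), Rab34 (1.77), Unc119b (1.34) and Alg14 (0.81), none of them called against mock, were among the higher and Ppm1l (−0.94) among the lower. Kpna6 was at 24.7 ± 2.68 CPM in D4 against 101 to 114 CPM in D5 (log2 difference 2.15, SE 0.09, adjusted p = 4.12e-16). Upf3a (0.51, adjusted p = 0.0139) and Cnot6 (0.30, adjusted p = 0.0037) were also higher in D5 than in D4. Otud4 did not differ detectably (0.18, SE 0.10, adjusted p = 0.237), at 56.4 ± 3.02 CPM in D4. Zfp850 was lower in D5 than in D4, where it was at 4.32 ± 1.13 CPM (−0.96, SE 0.33, adjusted p = 0.0337). Bcl2l2, with a seed match and a stretch of 12 bases, was higher in D5 than in D4 by 1.20 (SE 0.12). Eri1 in D5 was likewise above D4, at 48.5 to 59.7 CPM against 25.9 ± 2.62 CPM (1.07, SE 0.11).

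Against D6 at 50 nM, where GNA-isoguanine takes the place of GNA-guanine, 1342 of 11034 genes (12.2%) were higher in D5 and 911 (8.26%) lower. The matrix gene Ltbp2 (3.68), Lox (3.39), Igfbp7 (2.81) and Elmod1 (2.77) were higher, and Mturn (−1.83), Cnksr1 (−1.83), Itgb4 (−1.63) and Fam81a (−1.63) were lower. Kpna6 was at 31.2 ± 2.64 CPM in D6 (log2 difference 1.81, SE 0.08). Otud4 (0.08, SE 0.12, adjusted p = 0.697) and Cnot6 (0.07, SE 0.09, adjusted p = 0.652) did not differ detectably, and Zfp850 was lower in D5 than in D6 (−1.23, SE 0.30, adjusted p = 0.00384). Cell cycle genes were 11 higher and 6 lower of 47, with a median of 0.18.

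Against D2 at 50 nM, a GNA siRNA of another sequence and target, far fewer genes differed: 116 of 11016 (1.05%) were higher in D5 and 51 (0.463%) lower. The targets led, with Ttr at −9.64 and Hao1 at 3.80 (24.9 ± 5.73 CPM in D5 against 1.75 ± 0.511 CPM in D2). Among genes with a mean of at least 5 CPM over the D5 and D2 libraries, the lower genes after Ttr were led by Gbp9 (−1.51), an interferon-inducible GTPase gene, Otud4 (−1.28, SE 0.10) and Zfp446 (−1.05), and the higher genes after Hao1 by Srr (1.03), Derl3 (1.02) and Sigirr (0.98). Otud4 was at 155 ± 10.4 CPM in D2, above every D5 library, and Zfp850 (−1.74), Cnot6 (−0.57) and Kpna6 (−0.47) were also lower in D5 than in D2, while Upf3a did not pass the test (−0.44, adjusted p = 0.0877). The cell cycle list had 1 of 47 higher and 0 lower, with a median of −0.02, and its summed level was 2363 ± 126 CPM in D2 against 2379 ± 205 CPM in D5. Of the 15 genes named for the largest increases over mock, 3 were higher in D5 than in D2, Krt7 (0.94), Ifi30 (0.59) and Col4a2 (0.29, adjusted p = 0.0171). The other 12 were not called, among them Itgb4 (0.84, adjusted p = 0.0744) and Ahsg (−0.07, adjusted p = 0.766). These 15 were chosen by high values in the same D5 libraries, which favours higher calls. Against D4, 7 of the 15 were higher in D5 and 3 lower, and against D6, 5 were higher and 3 lower. The numbers of all genes called against D2 were 73 and 74 higher without D2 replicates 3 and 1, and 27, 29 and 33 lower without D2 replicates 3, 1 and 2.

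Against D5 at 10 nM, 0 of 10972 genes tested (0%) were called in edgeR or DESeq2, with 402 genes at an unadjusted p under 0.05. Ttr was not among them, because it did not pass the filter on low counts. Its libraries lay at 0.515 to 1.53 CPM at 50 nM and at 1.71 to 3.76 CPM at 10 nM, without overlap. Without D5 50 nM replicate 4, 1 gene was called. Otud4 stood at 124, 91.7, 62.2 and 63.7 CPM at 0.1, 1, 10 and 50 nM (means, n = 4 each), so that the level at the highest doses was close. Zfp850 stood at 7.4, 5.52, 3.08 and 2.2 CPM, and Cnot6 at 138, 116, 98.5 and 109 CPM. Col4a2 was at 295, 344, 591 and 618 CPM and Ifi30 at 37.2, 34.0, 63.9 and 73.2 CPM, with the larger step between 1 and 10 nM in both. The summed cell cycle level was 2757, 2731, 2436 and 2379 CPM over the same doses, against 2828 ± 224 CPM in mock (SD, n = 8), and 2226 ± 230 CPM in D4 and 2299 ± 294 CPM in D6 at 50 nM.

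**Figure D5:**
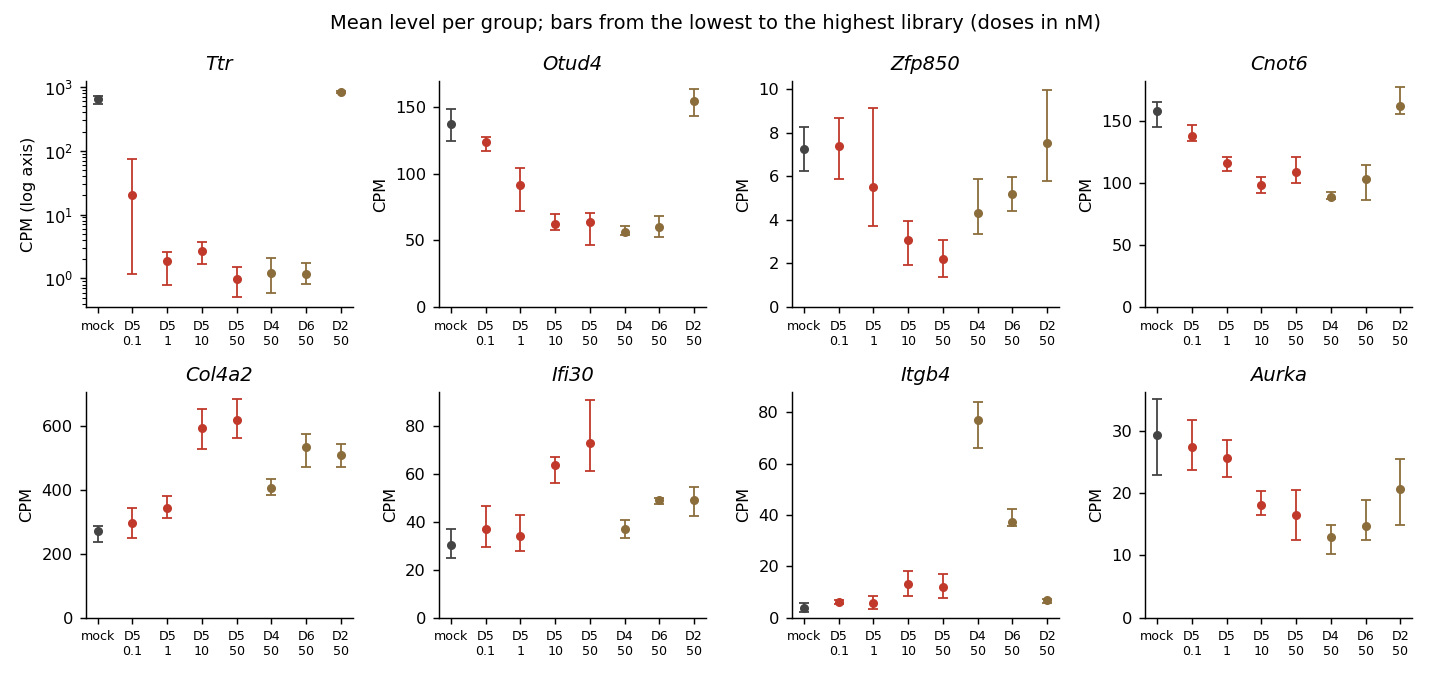
Mean level in CPM (vertical, log axis for Ttr) of 8 genes in mock, in D5 at 0.1, 1, 10 and 50 nM (red) and in D4, D6 and D2 at 50 nM (brown), with bars from the lowest to the highest library. Otud4 falls to 63.7 CPM in D5 at 50 nM and stays at 155 CPM in D2, while Itgb4 is at 12.1 CPM in D5 and 77.0 CPM in D4.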

How the data were processed

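The authors filtered reads for quality and length, aligned them with STAR to GRCm39, and counted uniquely mapped reads per gene with featureCounts 2.0.2. The deposited gene counts, not normalized, were used from 2 sequencing runs per library, which were summed (chi-square per degree of freedom between runs 1.01 to 1.05, against at least 1.67 between replicates). The 92 ERCC spike-ins entered neither library sizes nor tests. The deposited tables of the authors' DESeq2 1.32.0 comparisons (fold changes and p-values) were not used for values. CPM here are gene counts scaled to 1000000 per library, with library sizes adjusted by TMM factors over all 104 libraries.

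Groups of 2 were compared with edgeR 4.0.16 in R 4.3.3 (TMM, filterByExpr, robust glmQLFit, glmQLFTest), with Benjamini-Hochberg adjustment over all genes tested. Each SE is the absolute log2 fold change divided by the square root of the F statistic of this test. DESeq2 1.42.0 with betaPrior, RLE size factors, no filter, all 25 groups in 1 fit, each run alone, a replicate block and each library left out were alternatives. The test was checked on simulated data. Named were the 15 genes with the largest change in each direction (mean of at least 5 CPM, groups not overlapping), up to 4 members called per list, the 6 lower genes with CTCTATAA and 4 per direction in each direct comparison. Further list members were given from the same lists. Genes with a stretch of 13 or more bases were chosen after their values were seen. Members and lists were chosen with earlier results of these data known. Matches used the longest 3′-UTR, or all transcripts for stretches, of GENCODE M39. Replicate numbers were not used to pair the libraries, except in the alternative with a replicate block. Python 3.11.15 was used. With 2 to 7 counts per library, the level of silenced Ttr is imprecise. Values of some list members are not reported here.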

Additional observations from a re-analysis of the deposited data

Results flagged for a closer look

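A library stood apart from the others of its group (Dixon's criterion, log2 scale) for 12 of the 248 combinations of named gene and group checked, and chance flags about 1 in 20. In D5 at 50 nM these were Otud4, whose replicate 4 was lowest at 46.3 CPM against 68.6 to 70.5 CPM, Pbk (replicate 3 at 4.55 CPM against 7.95 to 8.54 CPM), Idua (replicate 2 at 10.1 CPM), Ndufc2 (replicate 1 at 36.2 CPM), Gapdh (replicate 4 highest at 766 CPM) and Ltbp2 (replicate 2 highest at 13.4 CPM). In mock, replicate 4 was lowest for Ttr (538 CPM against 627 to 715 CPM), Col4a2 (235 CPM), Hmox1 (127 CPM) and Ctsd (430 CPM), replicate 3 was lowest for Btg2 (83.0 CPM), and replicate 8 was highest for Krt19 (133 CPM).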

How the results depend on the processing

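No called gene among those named changed direction under the alternatives run for the comparison with mock. Of 120 named genes with a tested value, 61 kept their call under every alternative. Against mock, sequencing runs 1 and 2 alone gave 324 and 333 higher genes, and leaving out each library in turn gave 284 to 479 higher and 93 to 264 lower. Against D2, run 2 alone gave 71 higher genes and no filter on low counts 94 lower, and leaving out each library gave 73 to 121 higher and 27 to 51 lower. Against D5 at 10 nM, leaving out each library gave 0 to 1 higher. Plasma proteins higher numbered 7 and 8 with run 1 and 2 alone and 5 to 14 with each library left out. Lysosome genes higher numbered 9 with run 1 alone and 6 to 18 with each library left out, and cell cycle genes lower 17 to 29. Against D4 and D6, all counts stayed within 1.5 times. With the replicate number as a block, 506 genes were higher and 232 lower than in mock, 13 coagulation and 7 acute-phase genes were higher and 2 RNA interference genes. Libraries with the same number did not deviate together in every pair, so the numbers were not taken as a pairing. Their correlations were −0.032 to 0.081 with mock, −0.055 to 0.041 with D4 and 0.019 to 0.155 with D6. They were −0.034 to 0.115 with D2 and −0.033 to 0.157 with D5 at 10 nM. Replicate 4 of D5 at 50 nM correlated at 0.296 with a mock library of another number. Whether libraries of different groups shared a batch was not tested. Fewer genes were tested with a single run, and the cause of the other shifts was not tested.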
